A study of Rattus norvegicus with 6 samples.

Results

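Integrins are the cell's main receptors for the surrounding matrix, and laminins are among the chief proteins of the basement membrane that epithelia rest on. The integrin subunits and laminin chains were taken as the genes whose platform symbol is that of an integrin alpha or beta subunit or of a laminin alpha, beta or gamma chain. Of 38 such genes looked for, 24 were analysed, among 15037 named genes in all: 18 integrin subunits and 6 laminin chains. Another 14 were not analysed here, among them Itga2, Itga2b, Itga3, Itga9, Itga11, Itgav, Itgax, Itgb8, Lama2, Lama3, Lama4, Lamb1 and Lamb4.

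The cells were rat airway basal cells, the stem cells of the airway lining, from tracheal scrapings of 12-week-old rats (male, wild-type Sprague Dawley, 370 ± 39 g). Per the labels, 3 lines were made, each pooled from 3 rats, and each line was divided at isolation between EpiX and BEGM, 2 media for epithelial cells. RNA was taken after 8 days in EpiX (3 arrays) or BEGM (3 arrays), and nothing besides the medium is given as differing. Every value below is the authors' deposited signal of 1 probe set, taken as log2, and a difference is EpiX minus BEGM, so that folds assume base 2. The limit of the dimmest 25% of genes by mean level, 4.50, serves as a mark for dim probe sets, because detection calls were not used here.

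An integrin is a pair of 1 alpha and 1 beta subunit, and the pair decides which matrix protein is bound. Basal cells of stratified and airway epithelia are anchored through the pair of alpha6 and beta4, which grips laminin in hemidesmosomes, while the pair of alpha5 and beta1 and the pairs of alphaV bind the arginine-glycine-aspartate (RGD) motif of fibronectin and related ligands. A laminin is a trimer of alpha, beta and gamma chains, and laminin-332, whose beta chain is Lamb3, is the form typical of basal epithelial cells.

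In the label check, the basal cell transcription factor Tp63 was at 14.71, 14.62 and 14.80 on the EpiX arrays and 12.93, 12.53 and 12.23 on the BEGM arrays 1, 2 and 3. The basal keratin Krt14 was above 16 on every array. The basal marker Krt15 was at 16.34, 15.53 and 14.06 on the EpiX arrays 1, 2 and 3, against 12.15, 11.43 and 9.99 on the BEGM arrays. The basal marker Ngfr was low in both media, at 5.03 to 5.37 in EpiX and 4.69 to 4.88 in BEGM. The pan-leukocyte gene Ptprc was dim throughout, at 3.78 to 4.08 in EpiX and 4.01 to 4.14 in BEGM. Cd3e and Spi1 were also dim in both media, with means of 3.97 and 3.99 in EpiX and 4.10 and 3.91 in BEGM. Lyz2 was at 5.57 to 6.32 in EpiX and 5.43 to 5.69 in BEGM. Of the other leukocyte markers, Cd14, a co-receptor for lipopolysaccharide, was at 11.71 to 12.00 in EpiX and 10.95 to 11.90 in BEGM, and the lysosomal protein Cd68 at 9.17 to 11.36 in EpiX and 8.65 to 10.22 in BEGM, so neither was dim. BEGM array 1 stood apart: its score on principal component 1 over all genes (69.7% of the variance) was -7.24, against 34.2 to 53.9 for the EpiX arrays and -54.8 and -73.2 for the other BEGM arrays. Array numbers here follow the sample numbers of the source labels, with which the titles conflict: the arrays numbered 2 here are titled with a 3, and those numbered 3 carry no number in their titles. Results that pair or leave out numbers rest on this choice.

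Of the 24 members, 4 were lower in EpiX than in BEGM: the fibronectin receptor subunit Itga5, the alphaV partners Itgb5 and Itgb6, and the laminin chain Lamb3. By limma, at a Benjamini-Hochberg adjusted p under 0.05, 0 members rose. Of all 15037 genes, 5.78% were called in either direction, 3.15% lower and 2.63% higher in EpiX, against 16.7% of the members in either direction. At an unadjusted p under 0.05, 3 members were higher and 7 lower, together 41.7% of the members, against 22.5% of all genes (11% higher and 11.4% lower). The arrays of the 2 media did not overlap for 10 members, where 28% of all genes had no overlap. Of these members 3 were higher in EpiX (13.5% of all genes) and 7 lower (14.5%). The median difference was -0.03 over the members and 0.00218 over all genes. Without BEGM array 1, 7 members were called lower and 1 higher, in a fit that called 13.9% of all genes. Without EpiX array 1 or EpiX array 2 the count lower was 0, with 8 and 10 members at an unadjusted p under 0.05. Those fits called 1.13% and 0.672% of all genes. The count lower was 2 without EpiX array 3 (2.78% of all genes called), 1 without BEGM array 2 (1.28%) and 4 without BEGM array 3 (3.62%).

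**Figure D1:**
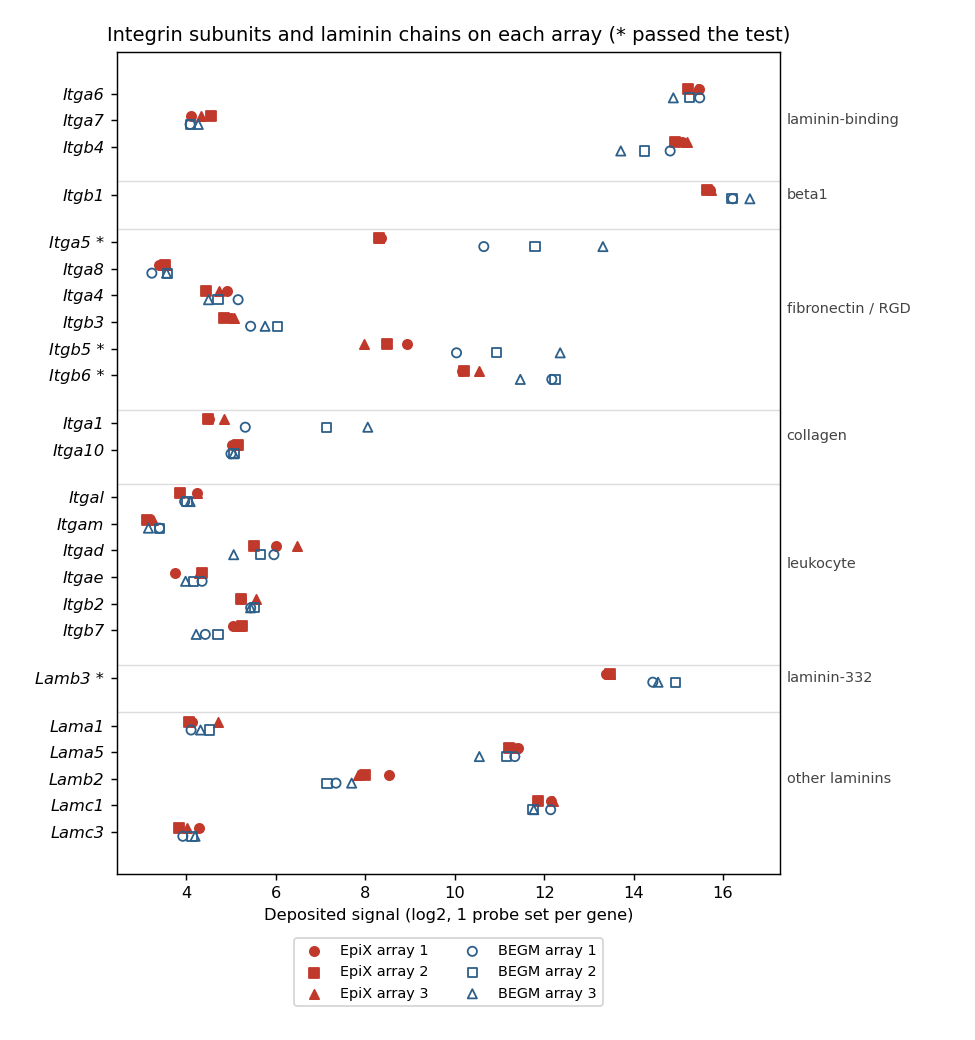
Deposited log2 signal (horizontal axis) of each of the 24 members, grouped by the ligand of the integrin or by laminin, with 1 point per array; filled red points are EpiX arrays and open blue points BEGM arrays. The EpiX and BEGM points of Itga5, Itgb5, Itgb6 and Lamb3, marked with an asterisk, do not overlap, and the BEGM points of Itga5, Itgb5 and Itga1 are spread more widely than their EpiX points.

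Itga5, the alpha subunit of the classical fibronectin receptor, was at 8.34, 8.30 and 8.30 on the EpiX arrays 1, 2 and 3, against 10.65, 11.80 and 13.31 on the BEGM arrays. The EpiX arrays lay within 0.05 of each other, while the BEGM arrays were all higher and widely spread, array 1 lowest and array 3 highest. Itga5 fell by 3.61 ± 0.60 (SE, n = 3 per medium; limma adjusted p = 0.0211), so that its signal was 12.2-fold lower in EpiX, with a 95% confidence interval of the log2 difference from -5.02 to -2.20. This was the largest difference among the members.

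Itgb5, a beta subunit that pairs with alphaV and binds vitronectin, was at 8.94, 8.49 and 7.96 on the EpiX arrays 1, 2 and 3, against 10.04, 10.94 and 12.36 on the BEGM arrays. The media did not overlap, and within each medium array 3 stood farthest from the other medium. Itgb5 fell by 2.65 ± 0.57 (SE; limma adjusted p = 0.0452), 6.27-fold. With the sample number as a block, a fit that called 8.33% of all genes, the adjusted p was 0.0561, which ended the call.

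Itgb6, the epithelial beta subunit whose pair with alphaV releases active TGF-beta from its latent form, was at 10.17, 10.22 and 10.55 on the EpiX arrays 1, 2 and 3, against 12.17, 12.24 and 11.47 on the BEGM arrays. Within BEGM, array 3 had the lowest Itgb6 value, while it had the highest values of Itga5 and Itgb5. Itgb6 fell by 1.65 ± 0.24 (SE; limma adjusted p = 0.0144), 3.14-fold.

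Lamb3, the beta chain of laminin-332, was at 13.39, 13.48 and 13.46 on the EpiX arrays 1, 2 and 3, against 14.43, 14.95 and 14.55 on the BEGM arrays. The signal stayed bright in both media, and the arrays of each medium lay close together. Lamb3 fell by 1.20 ± 0.17 (SE; limma adjusted p = 0.0137), 2.29-fold, with an interval from -1.60 to -0.79.

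None of these 4 calls held in every fit with 1 array left out. Lamb3 kept its call in 4 of these 6 fits, Itgb6 in 3, and Itga5 and Itgb5 in 2 each. The difference of Itga5 ran from -4.24 without BEGM array 1 to -2.91 without BEGM array 3, that of Itgb5 from -3.18 to -2.02 under the same omissions, and both were negative in every setting run.

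**Figure D2:**
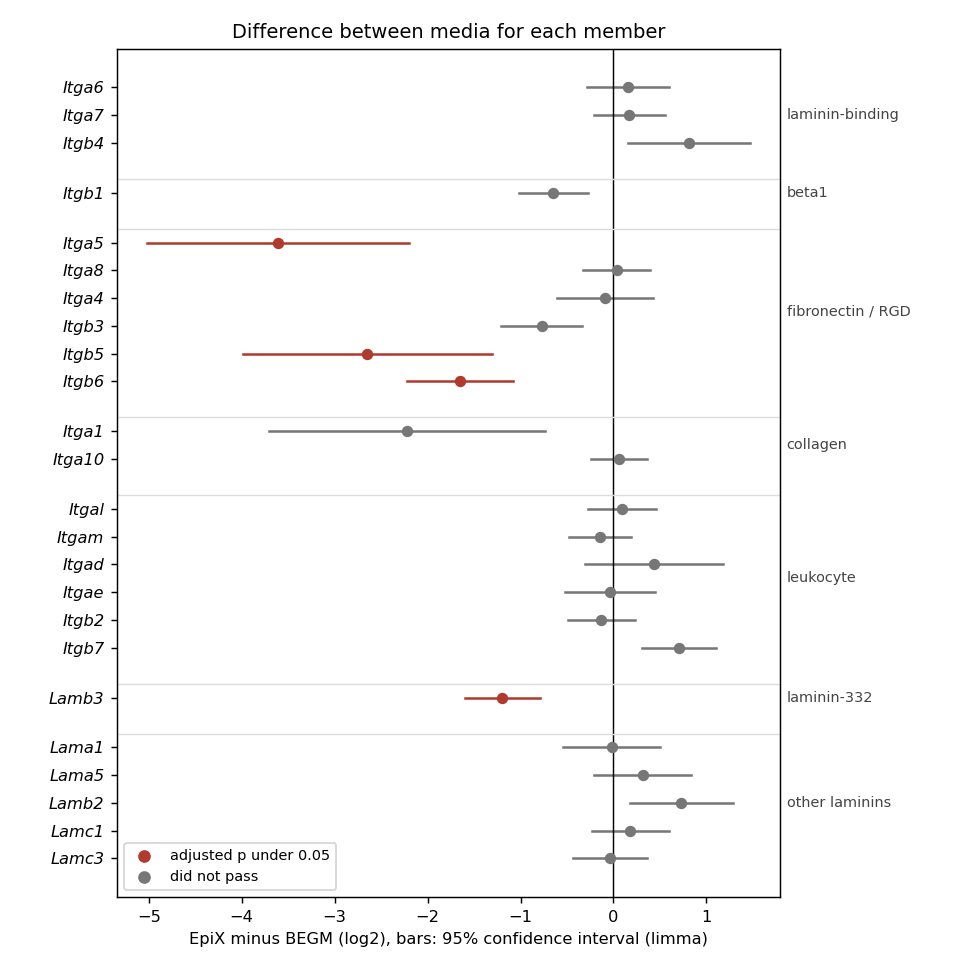
Difference EpiX minus BEGM on the log2 scale (horizontal axis) for each member, with the 95% confidence interval from limma as a bar; red marks the 4 members that passed at an adjusted p under 0.05. The 3 largest red differences are those of Itga5, Itgb5 and Itgb6 in the fibronectin and RGD group, while the intervals of Itga6, Lama5 and Lamc1 include 0.

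In the fibronectin- and RGD-binding group as a whole, 3 of 6 measured subunits fell, 0 rose and 3 did not pass, and the median difference was -1.21. Itgb3, which also pairs with alphaV, was at 5.01, 4.84 and 5.07 in EpiX and 5.44, 6.04 and 5.76 in BEGM on the arrays 1, 2 and 3. Its media did not overlap, but the difference of -0.77 ± 0.19 (SE) did not pass (limma adjusted p = 0.0616). It passed with array weights (0.0166) and without BEGM array 1 (0.0164), in fits that called 13.2% and 13.9% of all genes. Itga4, whose pair with beta1 binds fibronectin and the endothelial adhesion molecule VCAM-1, and Itga8, the receptor subunit for nephronectin, differed by -0.09 and 0.03, with arrays that overlapped. Itga8 was dim in both media, at 3.49 ± 0.08 in EpiX and 3.46 ± 0.20 in BEGM (SD, n = 3 each).

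The 3 measured laminin-binding subunits had positive differences, of which 0 passed by limma, with 1 at an unadjusted p under 0.05. Itgb4, the hemidesmosomal beta subunit, was at 15.09, 14.94 and 15.19 on the EpiX arrays 1, 2 and 3, against 14.82, 14.24 and 13.71 on the BEGM arrays. All EpiX values lay above all BEGM values, with BEGM array 1 the closest to the EpiX arrays. The difference was 0.81 ± 0.28 (SE; limma adjusted p = 0.143), and without BEGM array 1 it was 1.09 (limma adjusted p = 0.0171). Its partner Itga6 was at 15.45, 15.22 and 15.42 in EpiX and 15.48, 15.25 and 14.89 in BEGM, a difference of 0.16 ± 0.19 (SE; limma adjusted p = 0.681). The media overlapped for Itga6, and the interval of its difference, -0.28 to 0.60 on the log2 scale, lies within a 2-fold change in either direction. Itga7, a laminin receptor subunit best known from muscle, was dim in both media (4.32 ± 0.22 in EpiX and 4.15 ± 0.10 in BEGM, SD, n = 3 each).

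Itgb1, the beta subunit shared by the laminin, fibronectin and collagen receptors, was at 15.70, 15.63 and 15.74 on the EpiX arrays 1, 2 and 3, against 16.21, 16.20 and 16.60 on the BEGM arrays. The media did not overlap, but the difference of -0.65 ± 0.16 (SE) did not pass (limma adjusted p = 0.0648). It passed with a trended and robust variance (0.0362), with array weights (0.0270) and without BEGM array 1 (0.0472). Those fits called 5.89%, 13.2% and 13.9% of all genes.

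Of the collagen-binding subunits, Itga1, whose pair with beta1 prefers collagen IV, was at 4.51, 4.48 and 4.85 on the EpiX arrays 1, 2 and 3, against 5.32, 7.14 and 8.06 on the BEGM arrays. Its order on the BEGM arrays was that of Itga5 and Itgb5, array 1 lowest and array 3 highest. The difference of -2.22 ± 0.63 (SE) did not pass (limma adjusted p = 0.0922), but it passed with the sample number as a block (0.0459) and without BEGM array 1 (0.00164). Itga10, the receptor subunit known from cartilage, differed by 0.06 ± 0.13, with overlapping arrays.

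The fibroblast markers had differences of the same sign as Itga5, Itgb5, Itgb6, Lamb3 and Itga1. The mean level over 7 fibroblast markers was 5.59, 5.64 and 6.13 on the EpiX arrays 1, 2 and 3, against 6.82, 7.48 and 10.24 on the BEGM arrays. All 7 had a negative difference and 0 passed by limma, with 4 at an unadjusted p under 0.05, and for 5 of the 7 the media did not overlap. With the sample number as a block, a fit that called 8.33% of all genes, 3 passed: Col1a2, Lum and Thy1. None had a value under 4.50 on any array. The collagen gene Col1a1 was at 5.82, 5.14 and 5.56 in EpiX and 7.44, 8.32 and 12.34 in BEGM. Within BEGM, these markers and Itga5, Itgb5 and Itga1 were highest on array 3, and Itgb6 and Lamb3 on array 2. The part of fibroblasts in the differences of Itga5, Itgb5, Itgb6, Lamb3 and Itga1 was not tested. In RNA from a whole culture, fewer cells of a type and less RNA per cell cannot be told apart.

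Of the leukocyte integrin subunits, alphaL, alphaM and alphaD pair with beta2, while alphaE pairs with beta7 and binds E-cadherin on epithelium. Of 6 measured, 0 passed, with 1 at an unadjusted p under 0.05, and the median difference was 0.03. Itgal, Itgam and Itgae were dim in both media, with means of 3.18 to 4.13 in EpiX and 3.32 to 4.17 in BEGM. Itgb2, the beta subunit common to the leukocyte-specific pairs, was at 5.22, 5.22 and 5.57 in EpiX and 5.44, 5.53 and 5.44 in BEGM. Itgad differed by 0.44 ± 0.31 (SE), with overlapping arrays. Itgb7, which pairs with alpha4 or alphaE, was at 5.04, 5.24 and 5.19 in EpiX, against 4.42, 4.71 and 4.22 in BEGM. Its media did not overlap, and the difference of 0.71 ± 0.17 (SE) did not pass (limma adjusted p = 0.0602). It passed with each array centred on its median (0.0472), with quantile normalization (0.0365) and with array weights (0.0298). Those fits called 6.44%, 5.91% and 13.2% of all genes. Over 6 leukocyte markers, of which 3 were dim in both media, the mean level was 6.52 to 6.81 in EpiX and 6.36 to 6.50 in BEGM. Among the 6, 0 passed by limma, also at an unadjusted p under 0.05.

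Among the laminin chains other than Lamb3, 0 of 5 passed, with 1 at an unadjusted p under 0.05. Lamb2, the beta chain of laminins of nerve, muscle and kidney basement membranes, was at 8.53, 8.00 and 7.84 on the EpiX arrays 1, 2 and 3, against 7.35, 7.14 and 7.70 on the BEGM arrays. The media did not overlap, and the difference was 0.73 ± 0.23 (SE; limma adjusted p = 0.127), opposite in sign to that of Lamb3. Lama5, the alpha chain of the laminins found in most epithelial basement membranes, was at 11.42, 11.22 and 11.35 in EpiX and 11.34, 11.15 and 10.55 in BEGM. Lamc1, the most widely used gamma chain, was at 12.16, 11.86 and 12.19 in EpiX and 12.15, 11.75 and 11.77 in BEGM. Both overlapped between the media, and their differences of 0.31 ± 0.22 and 0.18 ± 0.18 (SE) did not pass. Lama1, a chain of early embryonic basement membranes, and Lamc3 were dim in both media, with differences of -0.02 and -0.04 that changed sign in other settings.

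**Figure D3:**
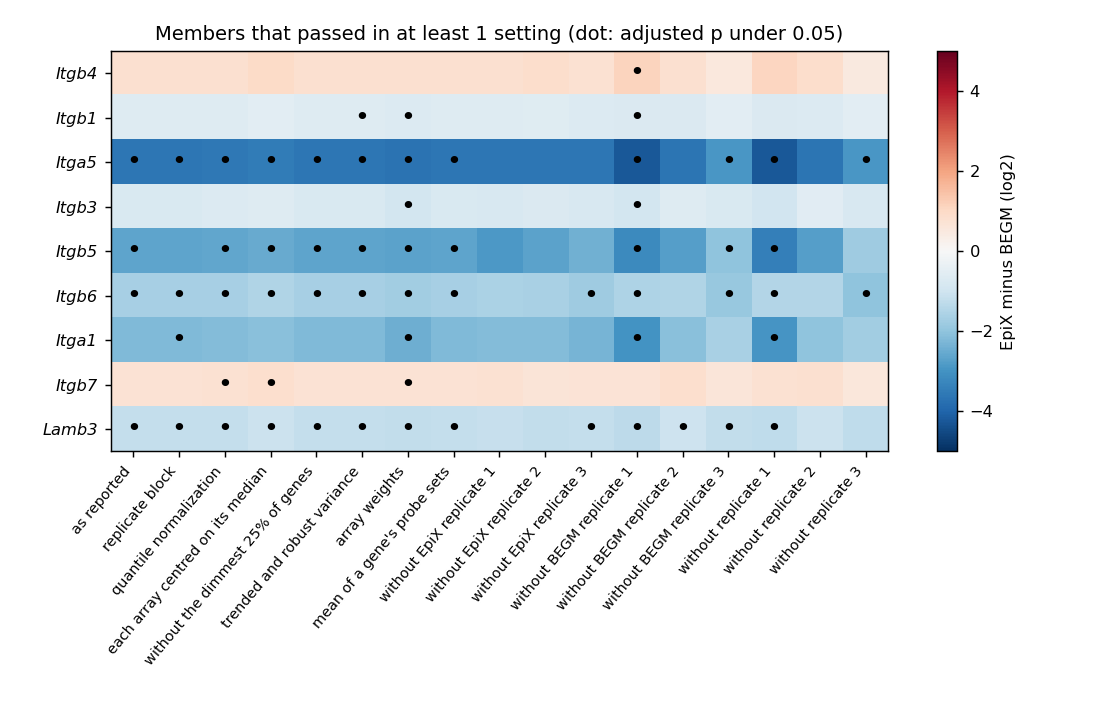
Difference EpiX minus BEGM (colour, log2) of the 9 members that passed in at least 1 setting, in the fit as reported and under each other setting, with a dot where the adjusted p was under 0.05. Itga5, Itgb6 and Lamb3 carry a dot in every setting that keeps all 6 arrays, Itgb5 in every such setting except the replicate block, and no member carries one without EpiX array 1, without EpiX array 2 or without both arrays of number 2.

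The 250 bases before the start of the 4 genes that fell are shown because these genes were lower in the same medium. They are from RefSeq promoter sequences of build GRCr8, in which 16 of the 24 members were found, and read 5′ to 3′ on the gene's strand. The starts are those of the annotation and were not measured here. Capitals mark matches on either strand to AP-1 (TGANTCA), SP1 (GGGCGG), TEAD (GGAATG), SMAD (CAGACA) or the CArG box bound by serum response factor. The windows are chr7:136381306-136381555 (minus strand) for Itga5, chr11:80449374-80449623 (minus strand) for Itgb5, chr3:65530334-65530583 (minus strand) for Itgb6 and chr13:107362303-107362552 (plus strand) for Lamb3.
Itga5: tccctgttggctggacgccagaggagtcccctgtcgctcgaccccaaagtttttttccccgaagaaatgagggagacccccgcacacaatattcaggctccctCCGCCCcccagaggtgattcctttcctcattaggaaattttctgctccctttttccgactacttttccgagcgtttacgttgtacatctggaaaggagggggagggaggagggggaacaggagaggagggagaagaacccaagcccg
Itgb5: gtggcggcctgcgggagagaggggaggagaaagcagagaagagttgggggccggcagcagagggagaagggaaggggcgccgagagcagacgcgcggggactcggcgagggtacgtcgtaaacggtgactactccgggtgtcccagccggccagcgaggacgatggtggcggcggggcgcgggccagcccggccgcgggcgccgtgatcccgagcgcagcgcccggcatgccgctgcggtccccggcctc
Itgb6: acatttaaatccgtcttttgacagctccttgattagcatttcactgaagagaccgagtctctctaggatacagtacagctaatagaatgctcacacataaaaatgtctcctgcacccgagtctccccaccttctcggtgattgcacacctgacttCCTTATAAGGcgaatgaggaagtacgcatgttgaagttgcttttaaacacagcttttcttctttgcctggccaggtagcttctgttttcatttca
Lamb3: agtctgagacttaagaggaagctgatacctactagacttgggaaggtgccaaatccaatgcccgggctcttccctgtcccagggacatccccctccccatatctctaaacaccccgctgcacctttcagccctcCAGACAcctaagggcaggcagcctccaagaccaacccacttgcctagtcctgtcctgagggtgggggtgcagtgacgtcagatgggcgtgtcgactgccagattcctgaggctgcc

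The 4 windows had no motif match in common. Itga5 held 1 SP1 match, starting 147 bases before the start, a motif found in 32.4% of 27457 promoter windows of this length. Itgb6 held 1 CArG match, starting 95 bases before the start, found in 1.5% of the windows. Lamb3 held 1 SMAD match, starting 116 bases before the start, found in 16.9%. Itgb5 held none of the 5 motifs, and 0 of the 4 windows held AP-1 (6.4% of windows) or TEAD (11.8%). Base composition differed: G and C made up 74.4% of the Itgb5 window, 58.4% of that of Lamb3, 55.6% of that of Itga5 and 43.2% of that of Itgb6.

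Of 78 listed genes that work with these receptors, 65 were measured, and 21 fell, 2 rose and 42 did not pass. Over all genes 3.15% fell and 2.63% rose. The median difference of the 65 was -0.80. With 1 array left out, the count of falls ran from 3 without EpiX array 2 to 34 without BEGM array 1. Of all 15037 genes, 63 and 1101 fell in those fits. The fibroblast marker means given above were highest on array 3 in both media, as were Fn1, Spp1, Thbs1 and Tnc. Over 5 smooth muscle markers the mean level was 6.22, 6.41 and 6.27 on the EpiX arrays 1, 2 and 3, against 7.67, 8.16 and 8.17 on the BEGM arrays. All 5 had a negative difference, and 1 fell, the actin-binding Cnn1 (-7.00 ± 0.74, SE). The differences of Actg2 (-0.58), Smtn (-0.52), Des (-0.29) and Myh11 (-0.09) were much smaller and did not pass. Des and Myh11 were dim in both media, with overlapping arrays. The part of either cell type in the partner genes' differences was not tested.

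The ligands of the fibronectin- and RGD-binding integrins had 8 falls, 0 rises and 9 that did not pass among 17 measured, with a median of -1.58. Fibronectin itself, Fn1, was at 14.61, 15.59 and 16.54 on the EpiX arrays 1, 2 and 3, against 17.45, 18.14 and 18.21 on the BEGM arrays. It fell by 2.35 ± 0.47 (SE; limma adjusted p = 0.0379), 5.11-fold, and the EpiX array nearest to BEGM was array 3. Among the members of the group that passed, the largest falls were those of the RGD protein Spp1 (-7.81 ± 1.13), the matrix protein Thbs1 (-6.77 ± 1.10) and the matricellular factor Ccn2 (-2.98 ± 0.21, SE). With 1 array left out, Ccn2 kept its call in 6 of 6 fits, Spp1 in 3, and Fn1 and Thbs1 in 2 each. Tenascin, Tnc, was at 6.81, 7.94 and 9.70 in EpiX and 10.90, 12.50 and 14.65 in BEGM, and its difference of -4.53 ± 1.05 (SE) did not pass (limma adjusted p = 0.0555). It passed with the sample number as a block (0.00177).

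Of the adhesion plaque genes, which link integrins to actin, 11 of 33 fell, 1 rose and 21 did not pass, with a median of -0.86. Among those that passed, the largest falls were those of the LIM-domain proteins Fhl2 (-4.12 ± 0.25) and Tgfb1i1 (-3.96 ± 0.55), the epithelial kindlin Fermt1 (-2.65 ± 0.37) and the tensin Tns1 (-2.56 ± 0.43, SE). With 1 array left out, Fhl2 kept its call in 6 of 6 fits, Fermt1 in 4, Tgfb1i1 in 3 and Tns1 in 2. Fermt1, which binds beta subunit tails and activates integrins, was at 6.59, 6.34 and 6.42 in EpiX, against 8.23, 9.77 and 9.30 in BEGM. Another tensin, Tns4, went the other way: it was at 14.11, 14.32 and 14.29 in EpiX, against 12.18, 12.07 and 11.58 in BEGM, and rose by 2.30 ± 0.19 (SE; limma adjusted p = 0.00278), a call kept in 6 of 6 such fits.

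On the laminin side, the receptor Bcam, which binds the laminin alpha5 chain, was at 12.46, 12.11 and 12.58 on the EpiX arrays 1, 2 and 3, against 9.21, 9.07 and 9.53 on the BEGM arrays. It rose by 3.11 ± 0.19 (SE; limma adjusted p = 0.00138), 8.65-fold, and passed in all 6 fits with 1 array left out. The other 2 measured laminin receptors did not pass. The hemidesmosome list had 2 of 4 genes measured, without Col17a1 and Dst. The tetraspanin Cd151, a partner of laminin-binding integrins, fell by 0.95 ± 0.19 (SE, limma adjusted p = 0.0334), a call kept in 1 of the 6 fits. The linker Plec differed by -0.16 ± 0.21 (SE, limma adjusted p = 0.718). Of 5 basement membrane genes, 1 fell, the laminin-binding Nid2 (5.40, 5.48 and 6.37 in EpiX, against 8.12, 8.97 and 9.22 in BEGM; -3.02 ± 0.36, SE), a call kept in 4 of the 6 fits. The ligands of leukocyte integrins had 0 of 5 called by limma, with 1 at an unadjusted p under 0.05.

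**Figure D4:**
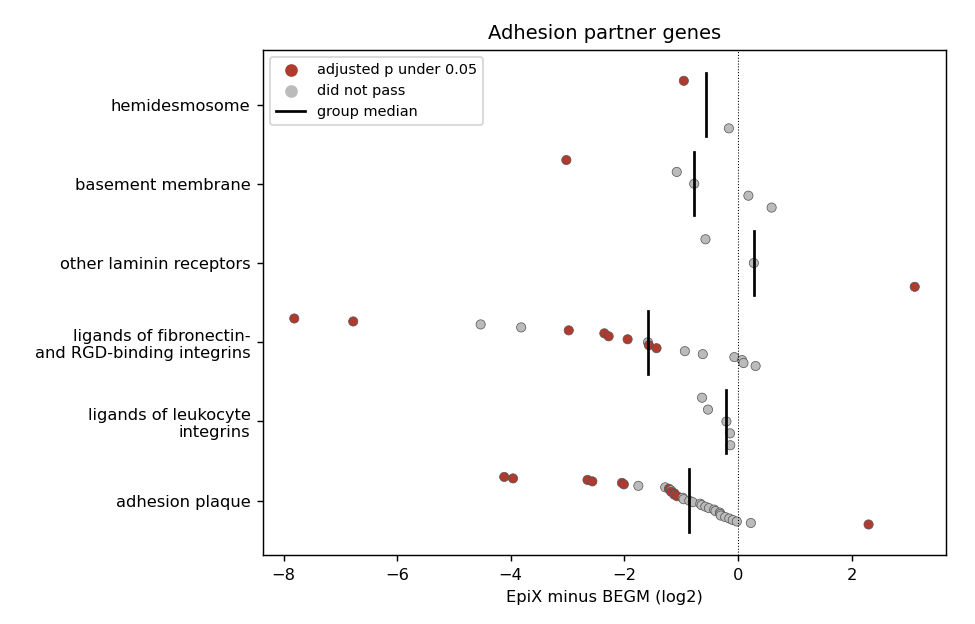
Difference EpiX minus BEGM on the log2 scale (horizontal axis) for each of the 65 measured partner genes, by role; red points passed at an adjusted p under 0.05 and black bars are group medians. The points above 0 that passed are Bcam and Tns4, and the group medians of the RGD ligands and the adhesion plaque lie at -1.58 and -0.86.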

How the data were processed

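RNA of 6 cultures was labelled with biotin and measured by the Affymetrix protocol, per the labels. The Transcriptome Analysis Console is named in the submitters' processing notes, with neither role nor version. In the authors' deposited table, log2 values give 1 signal per array for 24834 probe sets, from 2.62 to 18.66. That they are log2 was judged from their range; scale, normalization and centring stay unknown. The medians over the tested genes were 6.90 to 6.93 on the EpiX arrays and 6.98 to 7.13 on the BEGM arrays. Probe sets were named by the platform annotation, which can be old; 15049 had 1 symbol, giving 15037 genes (brightest probe set kept), and the 24 members each had 1 probe set and kept their symbol in RefSeq.

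Medium was the single term of a linear model fitted over all genes with limma 3.58.1 (lmFit, eBayes; R 4.3.3, statmod 1.5.0), with 2-sided p-values adjusted over 15037 genes, no filter and no further normalization. The fit was tested on simulated data, drawn as independent normal values with each gene's own mean and the same spread in both media. Spread that differs between the media and shifts of a whole array were not simulated, so its rates may not hold for these arrays. It called 35 of 68 genes changed by 1 log2 unit, 54 of 66 changed by 2 and 63 of 66 changed by 4. Of the unchanged genes, 14 were called. Figures were drawn with matplotlib 3.10.9. Precision is limited by the number of arrays.

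The labels say that each line was divided between the media, and same-numbered arrays were taken as the same line, although the labels do not say so. Over genes, deviations from the group mean correlated between same-numbered arrays at 0.32, -0.01 and 0.32 for numbers 1, 2 and 3. The block for the number was an alternative fit.

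The members, lists and tests were chosen with earlier results of these data known. All members could be named; of the partner genes, up to 4 called per role and direction with the largest differences, plus Fn1, Spp1, Tnc, Plec and Fermt1. Partner genes with no named probe set were left out, as were basal marker Krt5 and leukocyte marker Cd79a. Smooth muscle markers had 1 of 5 lower in EpiX, endothelial markers 0 of 6 called (2 at an unadjusted p under 0.05), and basal markers 2 of 4 higher.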

Additional observations from a re-analysis of the deposited data

How the results depend on the processing

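The sign of all 4 calls among the members was negative in every setting run, and the calls held with quantile normalization, median centring, the filter on dim genes, a trended variance, array weights and averaged probe sets. With the replicate block, 4 members were again called lower and 0 higher. Itgb5 lost its call (limma adjusted p = 0.0561), Itga1 gained one (0.0459), and Tnc gained one (0.00177). No other member and no other partner gene named here changed its call under the block. Over all 65 partner genes, the count of falls was 29 under the block, against 21 as reported, and the count of rises was 2 in both. The block called 8.33% of all genes, against 5.78% as reported. The count of members higher was 1 with quantile normalization, median centring and array weights, against 0 as reported, and the count lower was 7 with array weights, against 4. Array weights called 13.2% of all genes, against 5.78% as reported. Leaving out single arrays, or both arrays of a number (added after the data were seen), gave 0 to 1 members higher, 0 to 7 lower, 0 to 2 partner genes higher and 0 to 34 lower. The same fits called from 0% to 13.9% of all genes. The zeros for partner genes came without the arrays of number 2, where limma called 0 of all genes (1582 at an unadjusted p under 0.05). Fewer arrays also leave less power.

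Reversals of sign were found only in members that did not pass. With median centring, which moved the median of all genes to 0.13, Itga4 was at 0.0344, Itgae at 0.0903, Lama1 at 0.109 and Lamc3 at 0.0869. Lama1 was at 0.02485 with quantile normalization, and with array weights Itgal was at -0.0352 and Itgae at 0.0661; the cause was not tested. Leaving out arrays gave both signs for Itgae (-0.208 to 0.243), Lama1 (-0.227 to 0.208), Itga4 (-0.25449 to 0.0924), Lamc3 (-0.237 to 0.0874), Itga8 (-0.0787 to 0.0959), Itgal (-0.001 to 0.210223), Itga6 (-0.02655 to 0.296) and Itgad (-0.0482 to 0.731). The 3 arrays per medium, and signals under the dim limit, restrict what can be said of members such as Itga8, Itgam and Lamc3.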
